A study of Mus musculus with 502 samples.

Results

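The transcription factor NF-kB drives a fast and self-limiting inflammatory response in leukocytes, and 8 of its best known target genes were followed here across the immune cells of the mouse kidney. Of these, 5 encode secreted signals: the chemokines Cxcl2, Ccl3 and Ccl4 and the cytokines Tnf and Il1b. The other 3 encode inhibitors of the pathway: Nfkbia, Nfkbiz and Tnfaip3. They were taken by symbol from the 46603 gene rows of the count table, and 8 of 8 were present. The genes were chosen by their measured levels in these same cells, across timepoints and across gates set on the counts of 5 marker genes, so all values below are descriptions and no test rests on them.

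Single Cd45+ cells, that is leukocytes, came from kidneys of CD1 wild-type juvenile mice, either fresh or after cold storage of the intact organ for 6 h or for 1, 2, 3 or 4 days in HTS-FRS, a hypothermic preservation solution. Every kidney, fresh ones included, was digested warm with Liberase after storage, and live Cd45+ singlets were index sorted into plates and made into SmartSeq2 full-length cDNA libraries. Both kidneys of a mouse were pooled for dissociation up to day 2, and less kidney tissue of a mouse was used at days 3 and 4. No label names an animal, so the number of animals behind a timepoint is not known. Each timepoint was taken as 1 sample, cells were not replicates, and no difference between timepoints could be tested. There were 502 cells in all.

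The cell labels carry 3 prefixes, IM793, IM834 and IM790, called library prefixes here. The labels do not say what a prefix stands for, and the cells of each were kept apart. IM793 held 75 fresh cells, 76 from 6 h, 78 from day 2 and 2 from day 4, IM834 held 81 fresh cells, 75 from day 1, 82 from day 3 and 19 from day 4, and IM790 held 14 cells from day 4. A preserved group was set against fresh cells of its own prefix. Total counts per cell on genes ran from 1759 to 1895431 with a median of 695188. IM793 was deeper, with medians of 712369 to 962321.5 counts in fresh, 6 h and day 2 cells against 417385 to 548583 in the 4 timepoints of IM834. Levels are given as rpm, the reads of a gene scaled to 1000000 gene counts of the same cell, and differences are differences of the mean over cells of log2(rpm + 1), later minus earlier. Intervals are exact binomial 95% intervals for shares of cells, and they cover counting error only.

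In resting cells NF-kB dimers are held in the cytoplasm by IkB proteins, of which Nfkbia encodes IkB-alpha. Signals from Toll-like, IL-1 or TNF receptors activate the IkB kinases, IkB-alpha is degraded, and the freed dimers switch on chemokine and cytokine genes within a short time. Among the genes induced are the brakes of the pathway: Nfkbia itself, Tnfaip3, which encodes the ubiquitin-editing protein A20, and Nfkbiz, which encodes the nuclear protein IkB-zeta, an inhibitor of some targets and a co-activator of others. Cxcl2 and Il1b are typical products of neutrophils, monocytes and macrophages, Ccl3 and Ccl4 attract monocytes and lymphocytes, and Tnf activates the same pathway in neighbouring cells. Tissue dissociation is itself a known inducer of such genes in leukocytes.

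The promoters of 6 of the 8 genes were found in RefSeq (GRCm38.p6) and searched on both strands for the kB consensus, the DNA motif that NF-kB dimers bind. Among the 250 bases before the annotated start, Cxcl2, Nfkbia and the first of 2 Tnfaip3 starts held a match, which 2382 of 32851 promoter windows of this length did (7.25%). These 3 windows are shown because they hold the motif in a chemokine and in a pair of the inhibitors followed below. Capitals mark bases of the consensus, overlapping matches being joined.
Cxcl2, chr5:90903649-90903898, plus strand: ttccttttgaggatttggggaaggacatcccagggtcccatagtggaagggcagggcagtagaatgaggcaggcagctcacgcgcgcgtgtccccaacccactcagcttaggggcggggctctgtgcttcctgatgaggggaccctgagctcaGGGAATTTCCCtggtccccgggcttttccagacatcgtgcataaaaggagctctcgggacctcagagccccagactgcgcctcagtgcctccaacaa
Nfkbia, chr12:55492648-55492897, minus strand: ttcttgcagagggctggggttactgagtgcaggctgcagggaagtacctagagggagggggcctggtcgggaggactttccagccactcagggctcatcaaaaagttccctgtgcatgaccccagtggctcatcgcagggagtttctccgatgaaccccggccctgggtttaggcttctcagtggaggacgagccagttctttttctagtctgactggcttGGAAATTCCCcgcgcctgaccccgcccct
Tnfaip3, chr10:19015411-19015660, minus strand: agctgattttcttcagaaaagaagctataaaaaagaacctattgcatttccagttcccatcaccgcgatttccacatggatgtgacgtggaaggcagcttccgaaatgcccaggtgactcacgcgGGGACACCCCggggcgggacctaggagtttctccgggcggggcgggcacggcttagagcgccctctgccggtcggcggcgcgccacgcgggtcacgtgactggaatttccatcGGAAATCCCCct
The Cxcl2 match was an 11-base stretch that began 97 bases before the start, that of Nfkbia was 10 bases long and began 29 bases before it, and the Tnfaip3 window held 2 stretches, the nearer of which began 12 bases before it. No match lay in the windows of Ccl3, Tnf, Il1b or the second start of Tnfaip3, which says only that these letters were not in those 250 bases, and a match is no evidence of binding. The TATAAA box was found in the windows of Tnf, Il1b and the first Tnfaip3 start and in 12.4% of all windows. In the GENCODE M21 annotation Il1b lies on chromosome 2 and overlaps Il1bos on the opposite strand. Reads were counted without strand, so reads of these genes cannot be told apart. The other 7 genes overlapped no other gene.

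Cells were gated by at least 10 reads of a marker: Cd3e for T cells, Cd79a for B cells (74 cells), C1qb for complement-producing macrophages, Csf1r without C1qb for other mononuclear phagocytes (72) and S100a8 for neutrophils (32). The Cd3e gate took 52 fresh cells, 19 from 6 h and 7, 16, 7 and 3 from days 1 to 4, and the C1qb gate took 15 fresh cells, 5 from 6 h and 22, 15, 54 and 13 from days 1 to 4. Another 75 cells passed no gate and 21 passed gates of more than 1 lineage, 15 of these through S100a8 and Csf1r alone. Markers that the gates did not use were read in these shares. C1qa was read in 98.4% of the C1qb gate cells and Apoe in 96.8%, Cd79b in 100% of the Cd79a gate, Cd3g in 85.6% of the Cd3e gate, S100a9 in 90.6% and Cxcr2 in 81.2% of the S100a8 gate, and Lyz2 in 95.8%, Plac8 in 86.1% and Ccr2 in 69.4% of the Csf1r gate. Mertk, another macrophage gene, was read in only 14.5% of the C1qb gate, and Cd3d was read in 34.4% of the S100a8 gate. Several markers were shared between gates: Lyz2 was read in 83.1% of the C1qb gate and 68.8% of the S100a8 gate, Plac8 in 62.5% of the S100a8 gate and 44.6% of the Cd79a gate, and Cd2 in 43.2% of the Cd79a gate. Of the other monocyte markers Ly6c2 was read in 47.2% and Fcgr1 in 45.8% of the Csf1r gate. The leukocyte gene Ptprc, which encodes Cd45, was read in 83.9% to 97.2% of the cells of each gate.

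Across all 502 cells the inhibitors were read in more cells than the secreted signals. Nfkbia was read in 72.3% of the cells (68.2% to 76.2%), Nfkbiz in 52.4% (47.9% to 56.8%) and Tnfaip3 in 37.8% (33.6% to 42.3%). Il1b was read in 32.5% (28.4% to 36.8%), Ccl3 in 29.3%, Ccl4 in 27.5%, Tnf in 24.5% and Cxcl2 in 24.3%. The intervals of Nfkbia, Nfkbiz and Tnfaip3 did not overlap one another, while those of Ccl3, Ccl4, Tnf and Cxcl2 did, and that of Tnfaip3 overlapped that of Il1b. The order did not hold in every gate: in the C1qb gate Il1b was read in 43.5% of the cells and Tnfaip3 in 18.5%. Within a gate, cells without a read stood beside cells with high levels of the same gene: for Ccl3 in the C1qb gate the lower quartile was 0 rpm, the median 389 rpm and the upper quartile 2130 rpm.

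All 5 secreted signals were read in larger shares of the C1qb and Csf1r gates than of the lymphoid gates, as were Cxcl2 and Il1b in the S100a8 gate. Ccl3, Ccl4 and Tnf were read in 9.38%, 15.6% and 15.6% of the S100a8 gate. These 3 intervals overlapped those of the Cd3e gate. Cells with at least 4 of the 8 genes made up 50.8% of the C1qb gate (63 cells, 41.7% to 59.9%), 63.9% of the Csf1r gate (46 cells, 51.7% to 74.9%) and 62.5% of the S100a8 gate (20 cells, 43.7% to 78.9%), against 10.6% of the Cd3e gate (11 cells, 5.40% to 18.1%) and 2.70% of the Cd79a gate (2 cells, 0.329% to 9.42%). All 8 genes were read together in 12 cells of the C1qb gate and 2 of the Csf1r gate, and in none of the other gates. Cells with none of the 8 numbered 19 in the C1qb gate (15.3%), 8 in the Cd79a gate, 7 in the Cd3e gate, 1 in the Csf1r gate and 0 in the S100a8 gate, the last allowing a share of up to 9.38%. Median depth was similar between gates, from 618541.5 counts in the C1qb gate to 724591 in the Cd79a gate, and the S100a8 gate had the fewest genes per cell, a median of 1070 against 1793 to 2242. Of the 75 ungated cells 30.7% and of the 21 cells of more than 1 lineage 66.7% had at least 4 of the genes.

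**Figure D1:**
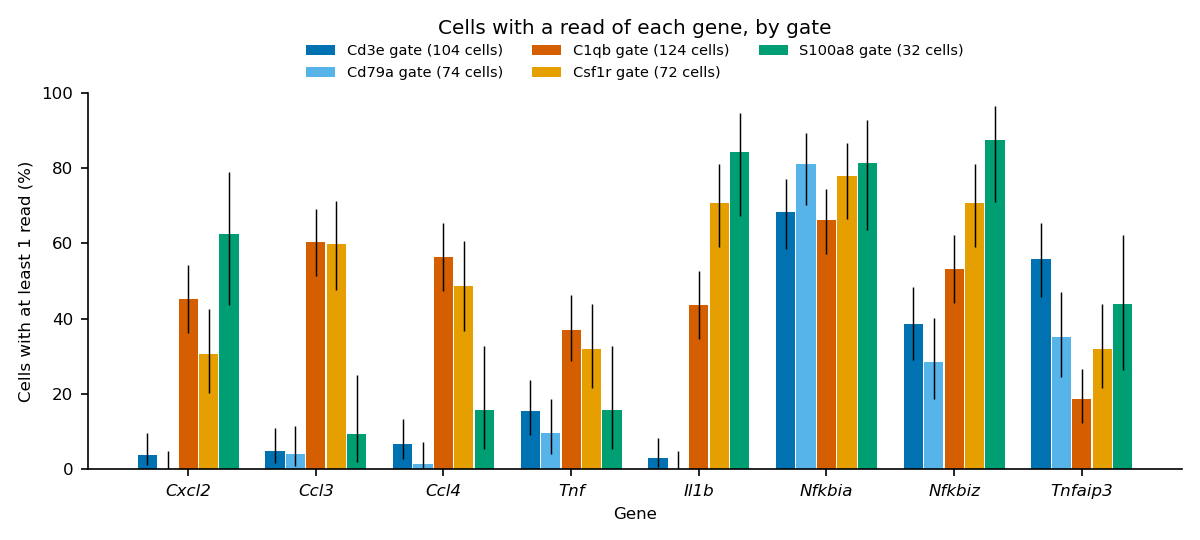
Share of cells with at least 1 read of each of the 8 genes, in percent, by marker gate; bars are shares and lines are exact 95% binomial intervals over cells. Cxcl2, Ccl3, Ccl4 and Il1b stood at 6.73% or less in the Cd3e and Cd79a gates and Tnf at 15.4% and 9.46%, whereas Nfkbia was read in 66.1% to 81.2% of every gate.

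The shares of the signals differed between the myeloid gates. Ccl3 and Ccl4 were read in 60.5% (51.3% to 69.1%) and 56.5% of the C1qb gate and in 59.7% and 48.6% of the Csf1r gate, but in 9.38% (1.98% to 25.02%) and 15.6% of the S100a8 gate. Il1b, which encodes the precursor of IL-1beta, went the other way: 84.4% of the S100a8 gate (67.2% to 94.7%), 70.8% of the Csf1r gate (58.9% to 80.95%) and 43.5% of the C1qb gate (34.7% to 52.7%). Its median level was 9454 rpm in the S100a8 gate, with a highest cell of 59415 rpm, against 832 rpm in the Csf1r gate and 0 rpm in the C1qb gate. Cxcl2, a ligand of the neutrophil receptor Cxcr2, was read in 62.5% of the S100a8 gate at a median of 1392 rpm, in 45.2% of the C1qb gate and in 30.6% of the Csf1r gate. Tnf was read in 37.1% of the C1qb gate, 31.9% of the Csf1r gate and 15.6% of the S100a8 gate, and the first and last of these intervals overlapped.

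Few lymphoid cells had the secreted signals, and Tnf was the most widely read of them in both lymphoid gates. In the Cd79a gate Cxcl2 and Il1b were read in 0 of 74 cells, which allows a share of up to 4.05%, Ccl4 in 1.35%, Ccl3 in 4.05% and Tnf in 9.46%. The Cd3e gate had Cxcl2 in 3.85% and Il1b in 2.88% of cells, but never with more than 2.06 rpm, and 0 cells reached 5 reads of either. Ccl3 and Ccl4 were read in 4.81% and 6.73% of the Cd3e gate. Their highest cells, at 7415 and 7114 rpm, were both among the 9 fresh IM793 cells of the gate. Tnf, which activated T cells also make, was read in 15.4% of the Cd3e gate, up to 1648 rpm, a share like that of the S100a8 gate (15.6%).

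The inhibitors had another order. Nfkbia was read in 81.2% of the S100a8 gate, 81.1% of the Cd79a gate (70.3% to 89.3%), 77.8% of the Csf1r gate, 68.3% of the Cd3e gate and 66.1% of the C1qb gate, and all 5 intervals overlapped. Its median was 818 rpm in the Cd79a gate, 844 rpm in the S100a8 gate, 380 rpm in the Csf1r gate, 313 rpm in the Cd3e gate and 178.5 rpm in the C1qb gate. Nfkbiz was read in 87.5% of the S100a8 gate, with a median of 590.2 rpm, in 70.8% of the Csf1r gate, 53.2% of the C1qb gate, 38.5% of the Cd3e gate and 28.4% of the Cd79a gate. Tnfaip3 was the one gene of the 8 with its highest share in T cells: 55.8% of the Cd3e gate (45.7% to 65.5%) against 43.8% of the S100a8 gate, 35.1% of the Cd79a gate, 31.9% of the Csf1r gate and 18.5% of the C1qb gate (12.1% to 26.5%). Counted from 5 reads, or after thinning every cell to 100000 counts, the share of a gene in a gate was lower by at most 9.46 and 8.11 percentage points.

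Within the C1qb gate many cells had several of the genes. Ccl3 and Ccl4, neighbours on chromosome 11, were read together in 60 cells, 80% of those with Ccl3 and 85.7% of those with Ccl4, and their log2 levels correlated with a Pearson r of 0.75 over the cells of the gate. Cxcl2 and Ccl3 were read together in 48 cells, 85.7% of the Cxcl2 cells and 64% of the Ccl3 cells (r = 0.58). All 23 cells with Tnfaip3 also had Nfkbia, and they were 28% of the Nfkbia cells. The 7 pairs of Il1b with another gene had r from 0.29 to 0.36, and the lowest r of any pair was that of Ccl3 and Tnfaip3 (0.24). In the Csf1r gate Ccl3 and Ccl4 had r = 0.35 over 72 cells and Cxcl2 and Il1b r = -0.07, while in the S100a8 gate 18 cells had both Cxcl2 and Il1b, 90% of the Cxcl2 cells and 66.7% of the Il1b cells (r = 0.36, 32 cells). Cells of a gate share prefixes and timepoints, so these are descriptions of the gates.

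The number of the 8 genes read in a C1qb gate cell was lowest at 6 h in IM793 and at day 4 in IM834. In IM793 the median was 8 of 8 in the 7 fresh cells, 2 in the 5 cells of 6 h and 4 in the 15 cells of day 2. In IM834 it was 5.5 in the 8 fresh cells, 6 in the 22 cells of day 1, 3 in the 54 cells of day 3 and 0.5 in the 10 cells of day 4. Cells with at least 4 of the genes made up 100%, 20% and 53.3% of the IM793 groups and 75%, 68.2%, 38.9% and 20% of the IM834 groups in the same order. The other 3 C1qb gate cells of day 4, 2 from IM790 and 1 from IM793, each had all 8 genes, whereas no IM834 cell of day 4 had more than 4. The single IM793 day 4 cell had no read of C1qa or C1qc.

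**Figure D2:**
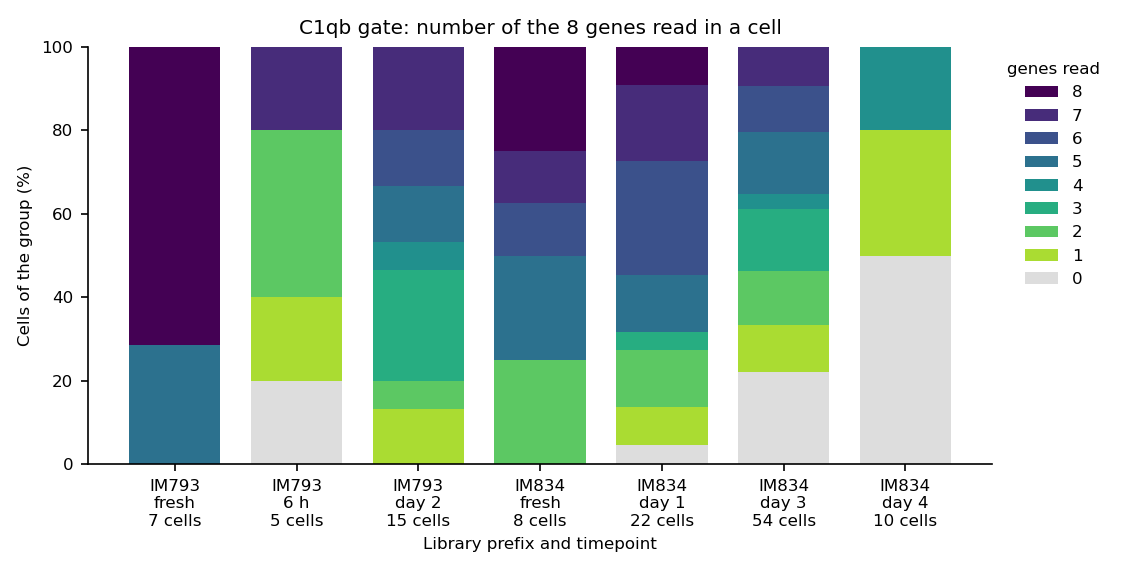
Number of the 8 genes with a read in a C1qb gate cell, as percent of the cells of each library prefix and timepoint, one stacked bar per group with its number of cells. Cells with 8 genes made up most of the 7 fresh IM793 cells, and cells with 0 genes (grey) numbered 12 of 54 at day 3 and 5 of 10 at day 4 in IM834.

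The preserved C1qb gate groups of at least 5 cells also had fewer genes of any kind, while the 3 other day 4 cells, which had all 8 genes, had medians of 3782 (IM790) and 3759 genes (IM793). The median number of genes per C1qb gate cell was 3738, 2392 and 1983 in fresh, 6 h and day 2 cells of IM793, and 2221, 2041, 1693.5 and 1134 in fresh, day 1, day 3 and day 4 cells of IM834, and Ptprc was read in 40% of the IM834 day 4 cells against 100% of the fresh cells. Median total counts did not follow this order: 882864, 1033735 and 1024786 in IM793 and 624766.5, 561749.5, 539932 and 567654.5 in IM834. Over the cells of the gate the number of the 8 genes read correlated with the number of genes read (Pearson r = 0.67) and hardly with the log10 total (r = 0.12). The 17 cells under 1000 genes, 4 of day 1, 9 of day 3 and 4 of day 4 of IM834, had a median of 1 of the 8 genes. None of the 15 fresh cells of the gate was under 1000 genes, and Ptprc was read in 29.4% of the 17 cells against 92.5% of the rest, so cells of this kind entered the preserved groups alone. Without them the medians of the IM834 groups were 5.5, 6, 3 and 0.5, the same as with them. The shares with at least 4 of the genes moved more, from 68.2% to 77.8% at day 1, from 38.9% to 46.7% at day 3 and from 20% to 33.3% (2 of 6 cells) at day 4. The part of the lower number of genes read in the lower values at later times was not tested.

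**Figure D3:**
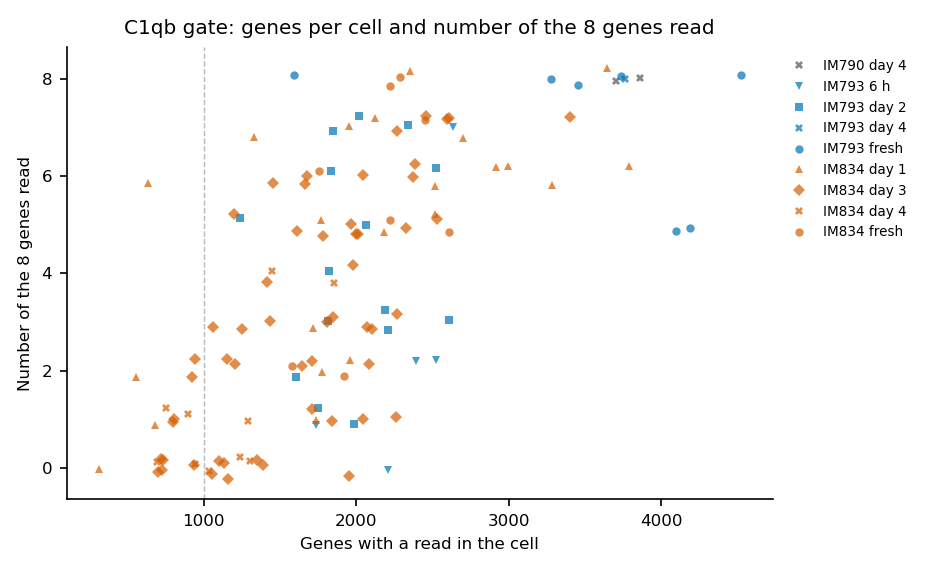
Number of the 8 genes read (vertical axis, points moved slightly up or down to separate them) against the number of genes with a read (horizontal axis) for each C1qb gate cell, by library prefix and timepoint; the dashed line marks 1000 genes. Cells under 1000 genes were all from IM834 and 8 of these 17 had none of the 8 genes.

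T, NK, B cell and neutrophil markers had medians at or near 0 in the C1qb gate at all times. Cells with 10 reads or more of Cd3e, Cd79a or S100a8 were kept out of this gate. These genes are among the summed T, B and neutrophil markers, and C1qb is among the macrophage markers. Such sums are therefore fixed in part by the gating, here and in the other gates, and are no check of a gate. Summed over 5 T cell markers the highest cell of any group of at least 5 cells had 4.24 rpm, and over 5 NK cell markers 10.1 rpm, and the group medians were 0 rpm. The median sum of 8 macrophage markers was 26539, 34886 and 32570 rpm in fresh, 6 h and day 2 cells of IM793 and 30322, 17226, 23942 and 25670 rpm in fresh, day 1, day 3 and day 4 cells of IM834. Neutrophil markers had a median sum of 0 rpm in all 7 groups, with a highest cell of 2880 rpm at day 2. B cell markers had medians of 0 to 0.552 rpm, with single cells of up to 1830 rpm at day 4. The 7 dendritic cell markers had a median sum of 314.6 rpm in fresh IM793 cells (0 to 1720.5 rpm), 27.6 rpm at 6 h (0 to 1189 rpm) and 0 rpm at day 2 (0 to 2190 rpm), and of 1.54 rpm in fresh cells and 0 rpm in all later groups of IM834. In IM793 they were thus lower in the same groups as the 8 genes, and their part in the lower levels was not tested. The 6 monocyte markers, among them Csf1r and Lyz2, which macrophages also express, had medians of 4949 to 10378 rpm in the 7 groups.

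Cxcl2 had its highest median in the fresh C1qb gate cells of both prefixes. In IM793 it was read in 5 of 7 fresh cells with a median of 2430 rpm and a highest of 9419 rpm, in 1 of 5 cells at 6 h, at 645 rpm, and in 5 of 15 cells at day 2, up to 4147 rpm. In IM834 it was read in 5 of 8 fresh cells (median 3797 rpm, highest 7845 rpm), and the day 1 group had 15 cells of 22 with a read (median 745 rpm). The day 3 group had 20 of 54 (median 0 rpm, highest 7447 rpm) and the day 4 group 2 of 10, the higher of which had 2.501 rpm. The groups overlapped, since each also held cells at 0. The mean differed from that of fresh cells by -6.37 at 6 h and -5.47 at day 2 in IM793, and by -0.79, -4.33 and -7.35 at days 1, 3 and 4 in IM834. Over cells of at least 1000 genes the day 1 difference was 0.03.

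Ccl3 and Ccl4 were read in all fresh C1qb gate cells of IM793 and in few of 6 h. Ccl3 was read in all 7 fresh IM793 cells, from 103.9 to 4051 rpm with a median of 2376 rpm, in 1 of 5 cells at 6 h, at 3383 rpm, and in 13 of 15 at day 2, with a median of 888 rpm. Ccl4 was also read in 7 of 7 fresh IM793 cells, from 425 to 4282 rpm, in 1 of 5 at 6 h, at 5843 rpm, and in 8 of 15 at day 2, at a median of 2.03 rpm. At 6 h, then, the same single cell held both chemokines at a level inside or above the fresh range, and the other 4 had none. In IM834 the shares of fresh, day 1, day 3 and day 4 cells with Ccl3 were 7 of 8, 15 of 22, 27 of 54 and 2 of 10, with medians of 955, 997, 5.88 and 0 rpm. Ccl4 was read in 4 of 8, 15 of 22, 29 of 54 and 3 of 10 of these cells, and its highest cell, 17886 rpm, was at day 3. Relative to fresh cells the mean of Ccl3 differed by -7.59 and -2.38 in IM793 (6 h, day 2) and by -1.68, -3.77 and -6.61 in IM834 (days 1, 3 and 4), and that of Ccl4 by -7.87 and -4.65 and by 1.39, -0.20 and -2.17. On summed counts the IM793 cells of day 2 were closer to the fresh cells, at 1340 against 1758 CPM for Ccl3 and 1984 against 1925 CPM for Ccl4, so the lower mean of Ccl4 at day 2 was not matched by its sum. The day 1 value of Ccl4 was the one higher mean past 1 log2 unit among the 40 differences of the C1qb gate, but its sum was 1596 CPM against 2316 CPM in fresh cells, of which 1 cell held 77.5%. Over cells of at least 1000 genes the day 3 difference of Ccl4 was 0.67.

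Tnf was where the fresh cells of the prefixes differed most. All 7 fresh IM793 cells had it, from 123.6 to 4608 rpm with a median of 636 rpm, but only 3 of 8 fresh IM834 cells did, up to 1074 rpm. It was read in 1 of 5 cells at 6 h (644 rpm) and 7 of 15 at day 2 in IM793, and in 10 of 22, 15 of 54 and 0 of 10 cells at days 1, 3 and 4 in IM834, the last allowing a share of up to 30%. The mean differed by -8.01 and -5.43 in IM793 and by -0.06, -1.63 and -3.64 in IM834, where the day 1 value was 0.51 over cells of at least 1000 genes.

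Il1b did not go with the chemokines at 6 h. The 5 cells of 6 h had 2459, 1778, 1199.8, 161.6 and 0 rpm of Il1b, and the 7 fresh cells of IM793 had 0 to 5134 rpm with a median of 1860 rpm and 2 cells at 0, so all 5 lay inside the fresh range. Its mean differed by -0.02 at 6 h and by -2.55 at day 2, where 9 of 15 cells had it. In IM834 the cells with Il1b were 6 of 8 fresh ones (median 1329 rpm, highest 8636 rpm), 12 of 22 from day 1 (median 130.1 rpm), 13 of 54 from day 3 and 2 of 10 from day 4, and the differences were -3.13, -5.91 and -7.01.

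**Figure D4:**
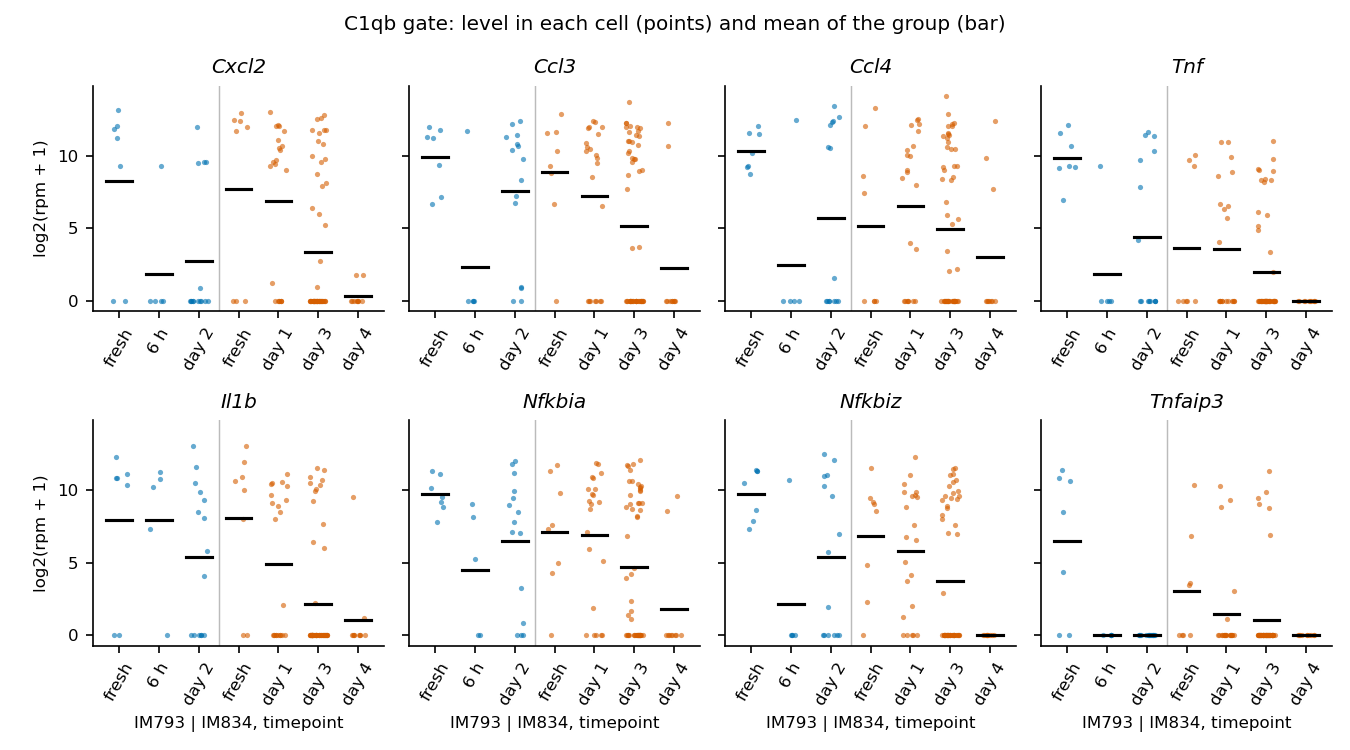
Level of each of the 8 genes in each C1qb gate cell as log2(rpm + 1), by timepoint, with IM793 at the left of the grey line and IM834 at the right; points are cells and bars are group means. At 6 h at most 1 of 5 cells had a read of Cxcl2, Ccl3, Ccl4, Tnf, Nfkbiz or Tnfaip3, against 4 of 5 for Il1b.

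The 3 inhibitors had lower means than fresh cells in the 5 comparisons of the C1qb gate, except that without the 4 day 1 cells under 1000 genes the day 1 means of Nfkbia and Nfkbiz were higher (7.83 against 7.14 and 7.03 against 6.87). Nfkbia was read in all 7 fresh IM793 cells, from 225.6 to 2640 rpm with a median of 756 rpm. At 6 h the 5 cells had 534, 291, 37.04, 0 and 0 rpm of Nfkbia, and at day 2 it was read in 12 of 15 cells with a median of 228.98 rpm. In IM834 it was read in 7 of 8 fresh cells (median 178.5 rpm) and 17 of 22 from day 1 (median 566 rpm), but in 31 of 54 from day 3 (median 9.43 rpm) and 2 of 10 from day 4. The mean of Nfkbia differed by -5.22 and -3.18 in IM793 and by -0.20, -2.40 and -5.32 in IM834.

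Nfkbiz was read in all 7 fresh IM793 cells, from 161.3 to 2695 rpm, in 1 of 5 cells at 6 h, at 1660 rpm, and in 9 of 15 at day 2. The IM834 cells with Nfkbiz were 7 of 8 fresh, 17 of 22 from day 1, 22 of 54 from day 3 and 0 of 10 from day 4. The differences were -7.64 and -4.36 in IM793 and -1.03, -3.12 and -6.87 in IM834. The 6 h cell with Nfkbiz was the one with Ccl3, Ccl4, Cxcl2 and Tnf, 7 of the 8 genes in all. Tnfaip3, the least read of the 8 in this gate, was found in 5 of 7 fresh IM793 cells, up to 2768 rpm, and in 0 of 5 at 6 h and 0 of 15 at day 2, which allow shares of up to 60% and 20%. In IM834 it was found in 4 of 8 fresh cells and, over the later timepoints, in 5 of 22, 6 of 54 and 0 of 10. The differences of Tnfaip3 were -6.54 at both times in IM793 and -1.55, -2.01 and -3.03 in IM834. A difference from a group without a read depends on the pseudocount of 1 rpm and is no bound.

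The spread between cells was wide beside these differences. As the mean ± SD over cells of log2(rpm + 1), the fresh IM793 cells (n = 7) had 8.24 ± 5.75 for Cxcl2, 9.94 ± 2.22 for Ccl3, 10.37 ± 1.35 for Ccl4, 9.87 ± 1.76 for Tnf, 7.94 ± 5.46 for Il1b, 9.72 ± 1.26 for Nfkbia, 9.78 ± 1.77 for Nfkbiz and 6.54 ± 5.06 for Tnfaip3. The IM793 cells of day 2 (n = 15) had, in that order, 2.77 ± 4.67, 7.56 ± 4.72, 5.72 ± 6.16, 4.44 ± 5.22, 5.39 ± 5.02, 6.54 ± 4.50 and 5.42 ± 5.28, with Tnfaip3 at 0. In IM834 the fresh cells (n = 8) had 7.71 ± 6.39, 8.91 ± 4.09, 5.18 ± 5.83, 3.64 ± 5.03, 8.08 ± 5.196, 7.14 ± 3.97, 6.87 ± 4.03 and 3.03 ± 3.89. These SDs describe the cells of a group and are no error of a timepoint. The fresh IM793 cells had the smallest SDs for Ccl3, Ccl4, Tnf, Nfkbia and Nfkbiz among these 3 groups, and no cell of theirs was at 0 for those 5 genes.

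Over the 8 genes the median difference in the C1qb gate was negative in all 5 comparisons, though at day 1 it became 0.32 when cells were gated from 1 read and 0.092 over cells of at least 1000 genes. All 8 genes passed the filter in each comparison, which asked that 20% or more of either group's cells had a read. Tnfaip3 at 6 h, day 2 and day 3, and Tnf, Nfkbiz and Tnfaip3 at day 4, passed it through the fresh cells alone. At 6 h, 7 were lower by at least 1 on the log2 scale and 0 higher, where 39.5% of the 8209 genes that passed were lower and 18.7% higher; the median difference was -7.07 over the 8 and -0.35 over all. At day 2, 8 were lower (all genes: 54.5% lower, 7.02% higher), with medians of -4.50 and -1.18. At day 1 in IM834, 4 were lower and 1 higher (all genes: 32.2% and 17.8%), with medians of -0.91 and -0.34. At day 3, 7 were lower and 0 higher (43% and 7.51%), with medians of -2.76 and -0.77, and at day 4, 8 were lower (54.2% and 9.18%), with medians of -5.97 and -1.17. The genes were chosen with these differences known, so the shares are given for scale and nothing is read from them. On summed counts of each group, scaled per 1000000, the medians were smaller: -2.33 at 6 h, -0.82 at day 2 and -0.97 at day 3. Sums are carried by the cells that still had a gene, and 1 cell held 100% of the 6 h reads of 5 of the 8 genes.

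**Figure D5:**
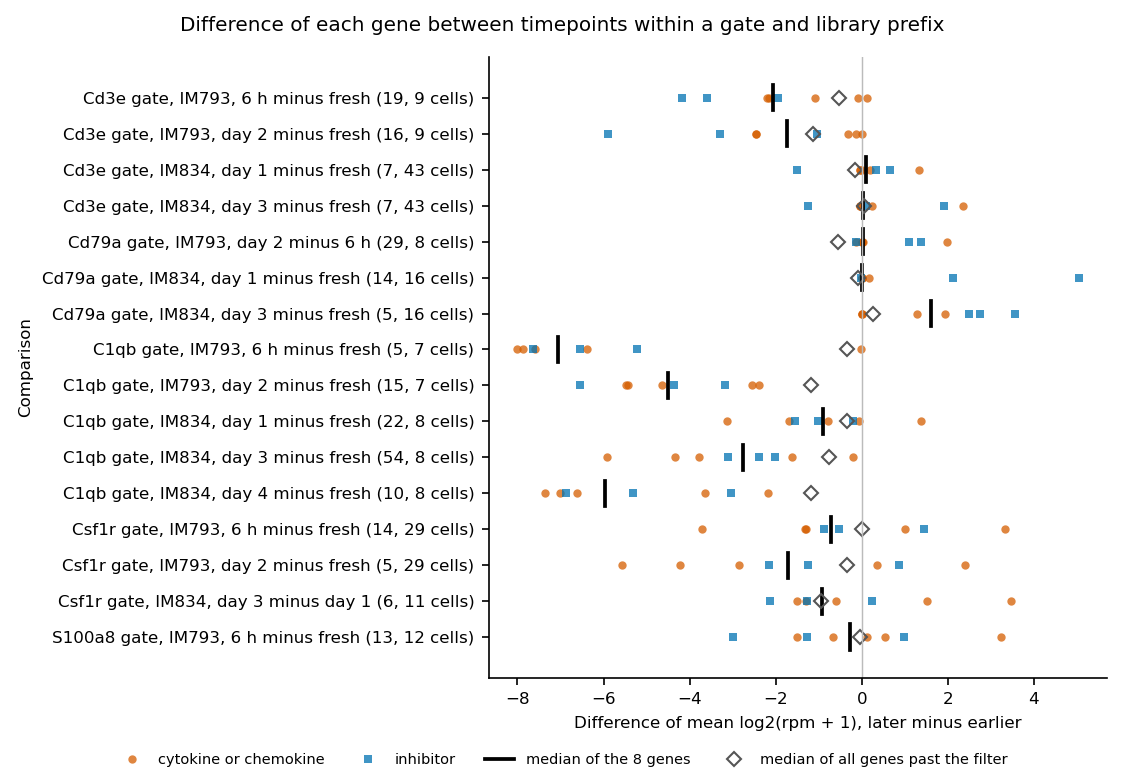
Difference of mean log2(rpm + 1) between timepoints (later minus earlier) for each of the 8 genes in the 16 comparisons with at least 5 cells a group; orange points are chemokines and cytokines, blue squares inhibitors, the black bar the median of the 8 and the open diamond the median of all genes past the filter. In the C1qb gate the median of the 8 lay between -7.07 and -0.91, and in the Cd79a gate between 0.00 and 1.61.

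Il1b and Ccl3 had differences of opposite sign in the Csf1r gate of IM793. Il1b was read in 26 of 29 fresh IM793 cells with a median of 2276 rpm, in 8 of 14 at 6 h with a median of 259.5 rpm, and in 3 of 5 at day 2, at 1436, 218.5 and 1.98 rpm, and its mean differed by -3.71 and -5.57. Ccl3 went the other way, from 13 of 29 fresh cells (median 0 rpm) to 12 of 14 at 6 h (median 176.8 rpm) and 3 of 5 at day 2, with differences of 3.34 and 2.41. Ccl4 was read in 14 of 29, 7 of 14 and 0 of 5 cells, with differences of -1.29 and -4.22. Cxcl2 differed by 1.01 and 0.36, Tnf by -1.32 and -2.84, Nfkbia by -0.88 and -2.16, Nfkbiz by -0.53 and 0.87 and Tnfaip3 by 1.45 and -1.25. The summed level of 6 monocyte markers had medians of 17301, 21704 and 8553 rpm in these groups (fresh 5042 to 45483 rpm, 6 h 7661 to 35660 rpm, day 2 1704 to 40030 rpm), and that of 7 dendritic cell markers 61.6, 15.7 and 0 rpm. The 8 macrophage markers had medians of 3696, 4179 and 8799 rpm and the 7 neutrophil markers 2.35, 266.5 and 1.98 rpm in the same order. Median genes per cell were 2542, 2509 and 1708 in these groups, and 1 of the 5 day 2 cells had under 1000 genes. The part of the gate's makeup and of the number of genes read in these differences was not tested.

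By count, 3 of the 8 genes were lower and 3 higher at 6 h in the Csf1r gate (all genes: 19.6% lower, 13.9% higher), and 5 were lower and 1 higher at day 2 (38.8% and 16.7%). Ccl4 and Tnf had no read at day 2 and passed the filter there through the fresh cells alone. The medians were -0.70 and -1.70 over the 8 and 0.00 and -0.34 over all genes. In IM834, where only 4 fresh cells passed the gate, day 3 (6 cells) was set against day 1 (11 cells): of the 7 genes past the filter 3 were lower and 2 higher (48.9% and 16.2%), the higher ones being Tnf (3.46) and Cxcl2 (1.52) and the lower ones Nfkbiz (-2.12), Il1b (-1.50) and Ccl3 (-1.29), and Tnfaip3, at -1.27, did not pass the filter. Median genes per cell were 2136 at day 1 and 1438.5 at day 3, and Ptprc was read in 66.7% of the day 3 cells.

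In the S100a8 gate only IM793 had enough cells for a comparison, 12 fresh and 13 of 6 h. Il1b was read in 12 of 12 fresh cells, from 1.23 to 59415 rpm with a median of 7018 rpm, and in 10 of 13 cells at 6 h with a median of 10986 rpm; the ranges overlapped and the means differed by -1.51. Cxcl2 was read in 6 of 12 fresh cells with a median of 289.5 rpm and in 10 of 13 at 6 h with a median of 3117 rpm, a difference of 3.24. Nfkbiz was read in 12 of 12 and 10 of 13 cells and differed by -2.99, Tnfaip3 by -1.26, Tnf by -0.67, Nfkbia by 0.99, Ccl4 by 0.53 and Ccl3 by 0.13. Of the 6 genes past the filter 3 were lower and 1 higher (all genes: 27% and 20.2%).

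T cells, in the Cd3e gate, had Nfkbia and Tnfaip3 as the most widely read of the 8 genes. Tnfaip3 was read in 9 of 9 fresh IM793 cells, from 5.45 to 4411 rpm with a median of 1606 rpm, in 12 of 19 at 6 h (median 406 rpm) and in 6 of 16 at day 2 (median 0 rpm), differences of -3.60 and -5.90. Nfkbia was read in 7 of 9, 13 of 19 and 9 of 16 cells, with medians of 1636, 252.1 and 21.9 rpm, and differed by -1.96 and -3.30. Nfkbiz, read in 6 of 9, 3 of 19 and 8 of 16 cells, differed by -4.17 and -1.04. Ccl3 and Ccl4 also had lower means at both times (-2.15 and -2.46, -2.21 and -2.45), but they were read in only 2 of the 9 fresh cells, and 1 cell held 93.3% and 75.8% of the reads. The 5 NK cell markers had a median sum of 523.6 rpm in these fresh cells (0 to 4816 rpm) and of 0 rpm at 6 h (0 to 12568 rpm) and at day 2 (0 to 5.30 rpm), and median genes per cell were 2198, 2132 and 1695 in fresh, 6 h and day 2 cells. The part of either in the lower means was not tested.

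Of the 6 genes past the filter in the Cd3e gate of IM793, 6 were lower at 6 h and 0 higher (all genes: 37.1% and 9.56%), and 5 were lower at day 2 and 0 higher (53.9% and 4.19%). Ccl3, Ccl4 and Tnf passed the filter through the fresh cells alone at both times, so the filter itself favoured a lower mean for them. In IM834 the comparison was made against 43 fresh cells, of which 25 had Tnfaip3 and 29 Nfkbia. The 7 cells of day 1 had 1 of 4 genes past the filter lower (Tnfaip3, -1.50) and 1 higher (Tnf, 1.32; all genes: 29.3% and 24.4%). The 7 cells of day 3 had 1 lower (Tnfaip3, -1.25) and 2 higher (Tnf, 2.36, and Nfkbiz, 1.90; all genes: 24.6% and 28%). At both times Tnf passed the filter through the preserved cells alone. Fresh cells themselves differed between prefixes, with median Tnfaip3 of 1606 rpm in IM793 and 5.40 rpm in IM834, and set against the fresh cells of both prefixes the 6 h median over the 8 genes was 0.04 in place of -2.05.

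In the Cd79a gate, set for B cells, all 3 inhibitors had higher means at day 3 than in fresh cells of IM834. Nfkbia was read in 10 of 16 fresh IM834 cells with a median of 32.9 rpm and a highest of 1219 rpm, in 13 of 14 at day 1 with a median of 1373 rpm, and in 4 of 5 at day 3, at 2599, 988, 914 and 688 rpm beside 1 cell at 0, and its mean differed by 5.05 and 3.56. Tnfaip3 was read in 5 of 16 fresh cells, 8 of 14 at day 1 and 2 of 5 at day 3, differences of 2.11 and 2.75. Nfkbiz, read in 5 of 16, 4 of 14 and 3 of 5 cells, differed by -0.01 and 2.49, while its sum was 162.7 CPM in fresh cells and 174.8 CPM at day 3. In the same fresh, day 1 and day 3 groups the summed level of 5 T cell markers had medians of 18.8 rpm (0 to 2182 rpm), 456 rpm (0 to 2291 rpm) and 1158 rpm (0 to 2865 rpm). That of 5 B cell markers had medians of 11053 rpm (2535 to 14391 rpm), 7437 rpm (3964 to 13191 rpm) and 7372 rpm (76.6 to 18735 rpm). The lowest cell of day 3 thus had little B cell marker RNA, and 1 cell of day 3 had 7469 rpm of NK cell markers. One of the 5 T cell markers, Cd2, was read in 43.2% of the whole gate, against 1.35% to 6.76% for the other 4. The part of these markers in the differences was not tested. In IM793 no fresh cell passed the gate, and day 2 (29 cells) was set against 6 h (8 cells): Nfkbia, read in 24 of 29 and 7 of 8 cells, differed by -0.13, while Tnf, Tnfaip3 and Nfkbiz differed by 1.99, 1.38 and 1.09.

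None of the genes was lower by 1 in the Cd79a gate. Of 4 genes past the filter 3 were higher in the IM793 comparison (all genes: 38.9% lower, 10.4% higher), of 3 genes 2 were higher at day 1 in IM834 (27% and 22.7%), and of 5 genes 5 were higher at day 3 (20% and 31.1%). Tnf and Ccl3 at day 3 rested on 1 cell each, at 796 and 86.1 rpm. Neither was read in a fresh cell, so both passed the filter through day 3 alone and could only count as higher. In IM793 Tnf, read in 0% of 6 h and 20.7% of day 2 cells, passed through day 2 alone, as did Nfkbiz (12.5% and 20.7%). Cxcl2 and Il1b were at 0 in every group of this gate.

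The other genes of the pathway were taken as a list of 52 in 5 roles, and they are given here for the C1qb gate by role. All genes past the filter stand beside them for scale. At 6 h (all genes: 39.5% lower, 18.7% higher), 5 of 6 cytokine and chemokine targets past the filter were lower and 1 higher, as were 8 and 0 of 9 other targets, 6 and 1 of 8 receptors and sensors and 5 and 1 of 7 inhibitors, against 1 and 1 of 5 kinases and NF-kB subunits. At day 2 (54.5% and 7.02%) the counts of lower and higher genes were 5 and 1 of 6, 7 and 0 of 9, 7 and 1 of 8, 6 and 0 of 7, and 0 and 1 of 5 in the same order of roles. Over the list 25 of 35 were lower and 4 higher at 6 h, and 25 of 35 lower and 3 higher at day 2. For days 1, 3 and 4 of IM834 the lower genes were 13 of 33, 16 of 30 and 21 of 31 and the higher ones 6, 1 and 0, beside 32.2%, 43% and 54.2% lower and 17.8%, 7.51% and 9.18% higher among all genes. The medians over all 52 genes were -1.32, -1.28, 0.00, -0.37 and -0.82 in the 5 comparisons, and genes without a read, which have a difference of 0, are included in them, so they are not comparable with those of the 8 genes, all of which passed the filter.

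Some genes of the list, named after their values were seen, had low means at the times when the 8 did, here as mean log2(rpm + 1) per group of the C1qb gate. Ccl2, a monocyte chemokine, had means of 9.42, 0.00 and 3.01 in fresh, 6 h and day 2 cells of IM793 and of 4.67, 5.11, 3.76 and 0.00 in fresh, day 1, day 3 and day 4 cells of IM834. Cxcl1, the close relative of Cxcl2, had 6.96, 0.00 and 0.82, and 3.61, 0.93, 0.45 and 0.00. Nfkbid, a nuclear IkB protein related to Nfkbiz, had 6.74, 0.00 and 1.27, and 2.75, 2.41, 0.82 and 0.30. Cd83, an activation marker, had 8.66, 1.48 and 3.65, and 4.42, 4.68, 2.14 and 1.65.
Zfp36, which encodes an RNA-binding protein that destabilises Tnf mRNA, was read in 77.4% of the C1qb gate and 100% of the S100a8 gate and had 10.22, 7.51 and 8.02, and 8.09, 7.36, 5.04 and 1.81. Other genes of the list did so in 1 prefix or at some times. Cxcl16, a membrane-bound chemokine read in 76.6% of the gate, had higher means at 6 h and day 2 than in fresh cells in IM793 (7.84, 9.71 and 9.58) and lower ones at all later times in IM834 (8.10, 6.54, 6.34 and 5.16). Rel, which encodes the subunit c-Rel, had 3.76, 3.50 and 3.40, and 1.20, 4.49, 2.55 and 1.03. Il6 and Cxcl3 had no read in the C1qb gate.

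Of the list genes past the filter in the Cd3e gate 15 of 26 were lower and 1 higher at 6 h (all genes: 37.1% lower, 9.56% higher) and 22 of 26 and 1 at day 2 (53.9% and 4.19%), and in IM834 3 of 14 and 7 at day 1 (29.3% and 24.4%) and 3 of 15 and 7 at day 3 (24.6% and 28%). The Cd79a gate had 6 of 19 lower and 9 higher for day 2 against 6 h (38.9% and 10.4%), 4 of 22 and 11 at day 1 (27% and 22.7%), and 4 of 28 and 9 at day 3 (20% and 31.1%), the last close to the shares of all genes. The Csf1r gate had 16 of 33 and 1 at 6 h (19.6% and 13.9%), 21 of 34 and 4 at day 2 (38.8% and 16.7%), and 18 of 30 and 5 for day 3 against day 1 (48.9% and 16.2%). The S100a8 gate had 17 of 29 and 3 at 6 h (27% and 20.2%).

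Immediate early genes, the first transcripts that cells make on stimulation, were taken as a companion list of 9, and the shares of all genes are those given with the pathway list. In the C1qb gate all 9 were lower at 6 h and day 2 in IM793 and at day 4 in IM834 (medians -4.93, -4.22 and -6.24). Of the 9, day 3 had 7 lower (median -2.82), and day 1 had 4 lower and 1 higher (median -0.74). Dusp1, a phosphatase induced by stress, had means of 11.06, 4.27 and 6.84 in IM793 and 12.32, 7.57, 5.65 and 2.19 in IM834. In the lymphoid gates of IM834 most had higher means: day 1 had 8 of 9 higher and none lower in both gates (all genes: 24.4% higher in the Cd3e gate, 22.7% in the Cd79a gate), and day 3 had 5 of 7 higher and 0 lower in the Cd3e gate (28% higher) and 7 of 9 higher and 2 lower in the Cd79a gate (31.1% higher). The other comparisons were these. In IM793 the Cd3e gate had 3 of 8 lower and 2 higher at 6 h and 1 of 8 each way at day 2, and the Cd79a gate 4 of 8 lower and 3 higher. The Csf1r gate had 0 of 9 lower and 3 higher at 6 h, 4 lower and 2 higher at day 2, and 8 lower and 0 higher for day 3 against day 1, and the S100a8 gate 0 of 9 lower and 4 higher.

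The genes whose levels were most like the mean of the 8 were sought among all other genes read in at least 10 cells. Over the 26 groups of gate, prefix and timepoint with at least 5 cells, the highest Pearson correlations among 12425 genes were those of Litaf (0.84), Tbkbp1 (0.82), Fcho2 (0.82), App (0.82) and Clec7a (0.81). Over the cells of the C1qb gate they were, among 11986 genes, Dusp1 (0.80), Egr1 (0.77), Junb (0.74), Fos (0.73) and Ppp1r15a (0.71). Of the latter 5, 4 are on the list of immediate early genes. Groups and cells share libraries and depth, and the values are descriptions.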

How the data were processed

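Single Cd45+ cells of mouse kidneys were measured as counts. The authors trimmed reads with fastx_trimmer, depleted duplicates with picard and used STAR for alignment to GRCm38. Counting was by HTSeq in its intersection-strict mode without regard to strand, and the authors dropped cells of under 1000 reads. The deposited values are raw counts per gene with 1 column per cell, and the sources used here give no version of these 4 tools. The libraries carried no molecular identifiers, so counts are reads.

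Of 46700 rows, 46603 name genes. The 96 ERCC rows (0.000185% of counts) and 1 vector row (0.139%) were left out. All columns matched a sample by title, and 0 were identical. Totals on genes ran from 1759 to 1895431 (median 695188). The prefix of the label, taken to mark a set of libraries although the labels do not say so, was kept as a group. The labels hold 317 index pairs, of which 169 occurred in 2 prefixes and 8 in 3.

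Counts were scaled per cell to rpm, with a pseudocount of 1 rpm on the log2 scale. Cells passed a gate with at least 10 reads of its marker, 21 cells of more than 1 lineage were set apart, and doublets were not called. Groups of at least 5 cells were compared within a prefix, over genes with a read in 20% or more of either group's cells, and a difference of 1 on the log2 scale was counted. Each timepoint was taken as 1 sample, so no test was made. Intervals are exact Clopper-Pearson 95% intervals, and a count of 0 was taken to allow 3 cells. RefSeq GRCm38.p6 windows of 250 bases were searched on both strands for the kB consensus by name and for TATAAA. Genes most like the 8 were ranked by Pearson r among genes read in at least 10 cells.

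All 8 genes are named, as are genes of the pathway and immediate early lists, those most like the 8 (first 5), and gate markers. Pathway genes given singly were picked after their values were seen. The genes, lists and gates were chosen with earlier results of these data known. Alternatives were CPM of summed counts, TMM and DESeq2 size factors, other gate minimums, overlapping gates, all fresh cells, a pseudocount of 10 rpm, no filter, thinning to 100000 counts, cells of at least 1000 genes, 18S and mitochondrial genes left out, and the highest cell left out. The scripts were tested on simulated data. Python 3.11.15, numpy 2.4.6, pandas 2.3.3, scipy 1.17.1, R 4.3.3, edgeR 4.0.16 and DESeq2 1.42.0 were used.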

Additional observations from a re-analysis of the deposited data

Results flagged for a closer look

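The same step of storage went with differences of opposite sign, each past 2 on the log2 scale, in different gates for 5 of the 8 genes. Among all genes past the filter in at least 2 gates of a comparison this was so for 6.42% (496 of 7729), and nothing is read from it, since the 8 genes were chosen by their levels in these cells. The difference between gates was not tested, since each timepoint was taken as 1 sample, and cells of a gate are not replicates.

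Ccl3, which encodes a chemokine, had opposite signs in the mononuclear phagocyte gates. At 6 h in IM793 its mean differed from that of fresh cells by -7.59 in the C1qb gate and by -2.15 in the Cd3e gate, but by 3.34 in the Csf1r gate. At day 2 the values were -2.38, -2.46 and 2.41 in the same order. On summed counts Ccl3 was at 1758, 740 and 1340 CPM in fresh, 6 h and day 2 cells of the C1qb gate and at 186.8, 469 and 656 CPM in those of the Csf1r gate. The means of log2(rpm + 1) were 9.94, 2.34 and 7.56 for fresh, 6 h and day 2 cells of the C1qb gate and 3.24, 6.58 and 5.65 for those of the Csf1r gate. In the Cd3e gate they were 2.52, 0.37 and 0.07, and 1 of the fresh cells held 93.3% of the Ccl3 reads.

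Cxcl2, a neutrophil attractant, differed at 6 h by -6.37 in the C1qb gate of IM793, from a mean of 8.24 to 1.87, and by 3.24 in the S100a8 gate, from 5.60 to 8.84. Its summed level in the S100a8 gate was 1645 CPM in fresh cells and 4345 CPM at 6 h. A single cell of 6 h held 26.8% of the Cxcl2 reads of the whole gate.

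The inhibitors had opposite signs in the C1qb and Cd79a gates at day 3 of IM834. Nfkbia differed by -2.40 in the C1qb gate and by 3.56 in the Cd79a gate, Nfkbiz by -3.12 and 2.49, and Tnfaip3 by -2.01 and 2.75. Over C1qb gate cells of at least 1000 genes the values of Nfkbia and Tnfaip3 were -1.75 and -1.80, which no longer pass 2. The day 3 group of the Cd79a gate had 5 cells. In it Nfkbiz was at 174.8 CPM on summed counts against 162.7 CPM in fresh cells, so its higher mean over cells was not matched by its sum.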

How the results depend on the processing

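Values here are medians over the 8 genes of the difference of means, and a change of up to 1 on the log2 scale was taken as the same. Among the recomputed medians 29 moved by more, not counting 1 that also moved by more and changed sign from a value past 1. With that 1 included, 20 had another sign than the value reported. In the Cd3e gate of IM793 the 6 h value of -2.05 became 0.040 against all fresh cells and -0.90, -0.92 and -0.92 on summed counts scaled by CPM, TMM and DESeq2 size factors. The day 2 value there, -1.75, became -0.12, -0.69, -0.71 and -0.64 in the same order. In the C1qb gate of IM793 the 6 h value of -7.07 became -4.89, -2.33, -2.64 and -2.28, and -4.82 with a pseudocount of 10 rpm, and the day 2 value of -4.50 became -2.37, -0.82, -0.75, -0.64 and -2.95. In IM834 the day 3 value of -2.76 became -4.36, -0.97, -0.70, -1.28 and -1.56. The day 1 value of -0.91 became -2.27 against all fresh cells and turned to 0.32 with the gate at 1 read and to 0.092 over cells of at least 1000 genes. The day 4 value of -5.97 became -3.71 with a pseudocount of 10 rpm, -4.66 with the gate at 1 read and -4.59 over cells of at least 1000 genes. In the Csf1r gate day 3 against day 1 of IM834 was -0.93, and 0.28 and 0.29 with CPM and DESeq2. The 6 h value of IM793 in that gate, -0.70, became 0.16 and 0.04 with CPM and DESeq2. The share of Cd3e gate cells with at least 4 of the genes, 10.6%, became 3.88% after thinning and 3.85% when a gene was counted from 5 reads. Apart from what the construction shows (a larger pseudocount shrinks differences from cells at 0, and sums weight the cells with most reads), the cause was not tested.

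Thinning, leaving out 18S and mitochondrial genes, letting gates overlap, a gate at 50 reads and leaving out the highest cell moved none of the medians they gave by more than 1. Groups of under 5 cells gave no value: the gate at 50 reads gave 14 medians and leaving out the highest cell 13 of 16. Comparisons with a group of 5 cells were thus not checked for their highest cell. They are 6 h in the C1qb gate, day 2 in the Csf1r gate of IM793 and day 3 in the Cd79a gate. With every gene read in place of the filter, 13 of 16 background shares of lower genes moved by over 1.5 times, for example from 43% to 16.6% at day 3 in the C1qb gate. No paired analysis was possible because the results come from no test. Depth limits the zeros: a gene without a read may be below detection, most of all in the cells with few genes. Each timepoint was taken as 1 sample, and groups hold as few as 5 cells. Day 1 and day 3 share no prefix with 6 h and day 2. Storage time and whatever a prefix stands for, which the labels do not say, therefore cannot be told apart between prefixes. Fewer cells of a kind past a gate and less marker RNA per cell also cannot be told apart.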
